A study of Mus musculus with 6 samples.

Results

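Classical monocytes are the circulating, inflammatory monocytes that marrow makes from dividing progenitors, and 10 genes that mark them or carry out their work were followed here: Ccr2, F13a1, Ms4a6c, Ms4a4c, Ctss, Fn1, Ly86, Mpeg1, Cybb and Lgals3. They were taken by gene symbol from a table of 47561 entries. All 10 were found, and all 10 passed the filter on low values that 12302 genes passed. The RNA came from mouse bone marrow in 6 libraries. The 3 control libraries are labelled negative control, and the 3 CUMS libraries come from mice put through chronic unpredictable mild stress, a series of changing mild stressors used to induce a depression-like state, for 4 weeks. No strain, age, sex or allele is given in the sources used here, and the labels call both groups bone marrow cells without naming a sort, so each value is a sum over all cells of the marrow. The values were read as FPKM, fragments scaled by exon length and by the library's mapped fragments, so levels may be compared between genes.

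The role of these genes in the cell is well described. CCR2 is the chemokine receptor through which classical monocytes leave the marrow toward its ligand CCL2, and mice without it hold their monocytes back in the marrow. The other members serve what these cells do after egress: proteolysis in endosomes (Ctss), killing of microbes (Cybb, Mpeg1), sensing through the Toll-like receptor family (Ly86), matrix and clot chemistry (Fn1, F13a1), glycan binding (Lgals3) and membrane signalling by 4-span proteins (Ms4a6c, Ms4a4c). In mouse, the surface protein encoded by Ly6c2 is the usual label of the cell, and classical monocytes convert into nonclassical ones that carry the fractalkine receptor Cx3cr1.

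The 250 bases before the transcription start are shown for Ctss, a member that was lower in CUMS with the replicate number as a block. They are also shown for both of the members with such a motif whose groups overlapped (Cybb and F13a1). They were read from RefSeq on GRCm38.p6, which holds a promoter for 9 of the 10 members, and are written 5′ to 3′ on the gene's strand. Capitals mark matches, on either strand, to GAGGAA, a core of the ETS sites that the myeloid factor PU.1 binds, or to an interferon regulatory factor element, searched as GAAA, any 2 bases and GAAA again. No 2 matches overlap.
Ctss, chr3:95526536-95526785, plus strand: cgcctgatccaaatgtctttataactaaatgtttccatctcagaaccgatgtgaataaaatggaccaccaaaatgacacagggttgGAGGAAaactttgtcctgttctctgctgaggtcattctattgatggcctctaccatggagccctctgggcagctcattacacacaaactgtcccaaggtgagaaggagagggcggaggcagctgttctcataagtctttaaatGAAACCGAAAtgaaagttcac
Cybb, chrX:9469325-9469574, minus strand: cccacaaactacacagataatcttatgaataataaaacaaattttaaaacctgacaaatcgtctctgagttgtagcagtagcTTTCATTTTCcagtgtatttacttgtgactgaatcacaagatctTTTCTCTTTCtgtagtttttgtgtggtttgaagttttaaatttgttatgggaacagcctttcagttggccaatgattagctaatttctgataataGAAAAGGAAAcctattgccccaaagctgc
F13a1, chr13:37050245-37050494, minus strand: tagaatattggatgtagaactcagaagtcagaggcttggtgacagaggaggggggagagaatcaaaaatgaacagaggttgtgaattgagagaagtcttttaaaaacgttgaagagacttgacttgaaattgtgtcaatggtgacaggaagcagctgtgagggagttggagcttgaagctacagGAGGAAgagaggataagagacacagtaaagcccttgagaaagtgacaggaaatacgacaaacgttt
The interferon regulatory factor element occurred in 2.98% of 32851 promoters of this length. Among the 10 promoters of the members it was in 2. Ctss holds it 21 bases before the start and Cybb holds it 3 times, at 168, 124 and 29 bases. GAGGAA was in 3 of the 10, those of Ctss, Ms4a4c and F13a1, and in 23.3% of all promoters. F13a1 has another promoter among the 10, at chr13:37049214-37049463, without a match. Of the members lower with the block, Ctss and Ms4a4c hold a match, and Ccr2, Ly86, Mpeg1 and Lgals3 hold none. The starts used for Ly86 and Lgals3 were not found at the start of a GENCODE M21 transcript. TTGCNNAA, a core of C/EBP sites, was in none of the 10 and in 9.56% of all. These letters describe the windows only.

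In control marrow the members were among the well expressed genes. Their mean levels ran from 24.8 FPKM for Ms4a4c to 202 FPKM for Lgals3, and by its mean log2 level over all 6 libraries the lowest of them lay above 73.8% of the tested genes. Summed, the 10 gave 995 to 1080 FPKM in the control libraries and 840 to 891 FPKM in the CUMS libraries. The order of control means was Lgals3, Cybb, Ctss, Mpeg1, F13a1, Ccr2, Fn1, Ms4a6c, Ly86 and Ms4a4c. The control libraries of Cybb and Ctss overlapped, as did those of Ctss and Mpeg1, of Ccr2 and Fn1, and of Fn1 and Ms4a6c, while the other neighbours in that order were apart. Other genes used to mark the cell were read beside the members, which cannot show which cells the members' RNA came from. Ly6c2 was at 708 ± 123 FPKM (SD, n = 3) in controls, Chil3, a chitinase-like protein of marrow monocytes, at 1524 ± 246 FPKM, and Lyz2, lysozyme, at 5579 ± 1126 FPKM. All 24 genes of a list of other classical monocyte genes were expressed above the filter. Chil3 and Lyz2 were singled out after their values were seen, and neutrophils express them too.

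The comparison of CUMS with control asked whether stressed marrow, which the series title ties to myelopoiesis, held more or less RNA of these monocyte genes. All 10 had a log2 change below 0, with a median of −0.29, as against 6186 of 12302 tested genes and a median of −0.0017. F13a1 lay above 0 with quantile normalization and with libraries scaled to the same total without haemoglobin. The changes of F13a1 (−0.0039), Cybb (−0.05) and Fn1 (−0.07) were close to 0. The members were chosen with earlier results of these data known, so their count below 0 is a description only. The 3 CUMS libraries all lay below the 3 control libraries for 7 members, which 12.1% of all tested genes also did. No member passed an adjusted p under 0.05 in the limma fit with group as its only term, in which 0.455% of tested genes were called lower, 0.618% higher and 1.07% in either direction. Among the members 6 had an unadjusted p under 0.05, as did 15.4% of all tested genes in either direction. Replicates of the same number deviated from their group means together, but replicates 2 and 3 did so about as much when crossed. The pairing of those libraries by number is therefore not distinct. With the replicate number as a block 6 members fell: Ccr2, Ms4a4c, Ctss, Ly86, Mpeg1 and Lgals3. In that fit 4.31% of tested genes were called lower, 3.49% higher and 7.8% in either direction. Ms4a6c, Cybb, F13a1 and Fn1 were not called in it. In bulk RNA, fewer monocytes and less of a transcript in each of them cannot be told apart. The plot of FPKM by library shows each value.

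**Figure D1:**
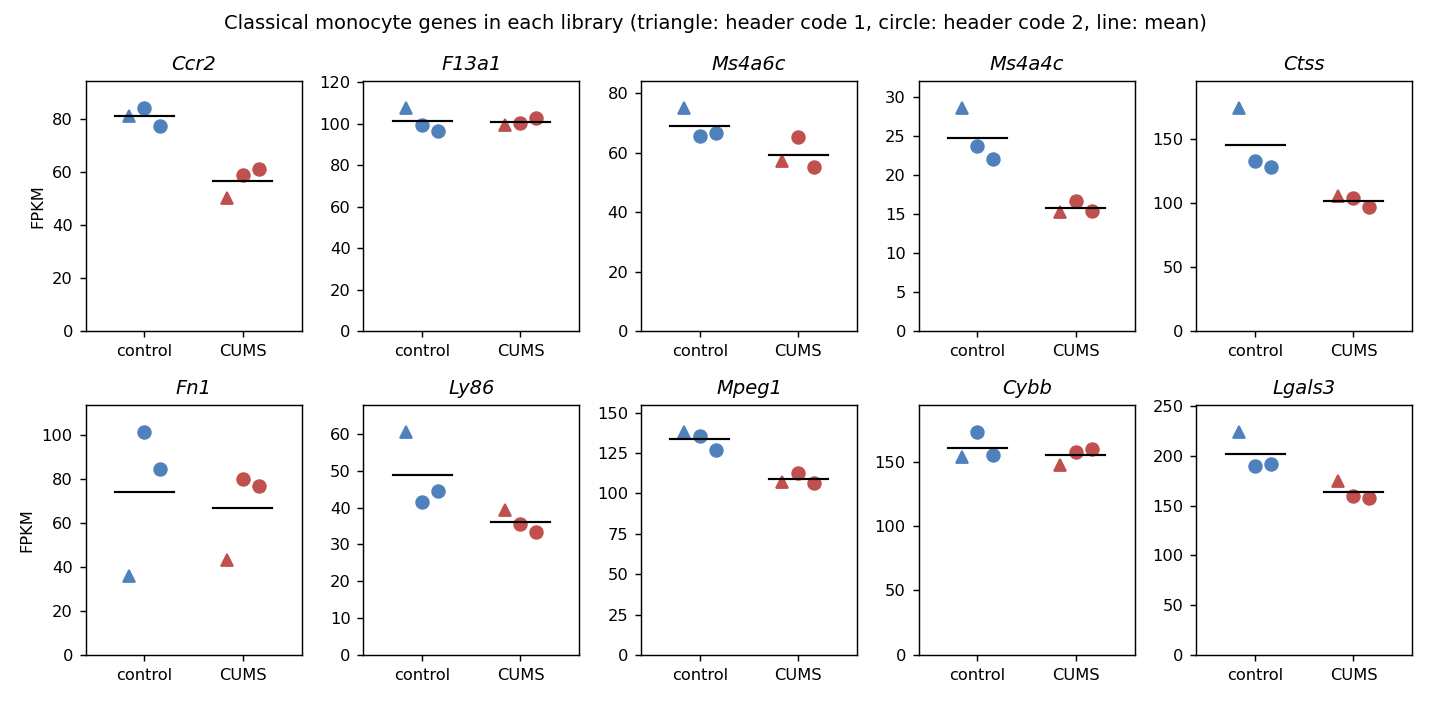
FPKM (vertical axis, from 0) of the 10 members in each library, 3 control (blue) and 3 CUMS (red), with the group mean as a line and the code in the file header as the symbol. The CUMS libraries lie below all control libraries for 7 members, while F13a1, Cybb and Fn1 overlap and Fn1 separates by the code.

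The symbols follow a code in the file headers, 1 for the control and the CUMS library numbered 1, and 2 for the 4 libraries numbered 2 or 3. Its meaning is not stated. Many genes differed by it: 30.5% of tested genes differed between the codes at an adjusted p under 0.05 (limma, group as a term). Of all tested genes, 17.7% were lower and 12.7% higher in code 1. Among the members 3 of 10 differed, Fn1 lower and Ly86 and Lgals3 higher in code 1. Both codes hold both groups, so the stress difference can be read inside each of them. Code 1 has 1 library of each group, so its difference has no measure of spread. The differences within the codes are parts of the overall change, not separate evidence. The stress difference was below 0 within both codes for 8 members and differed in sign between them for F13a1 and Fn1. The share of all tested genes below 0 in both codes was not counted. The median of the members was −0.38 in code 1 and −0.26 in code 2, beside −0.020 and 0.0051 over all tested genes. With the code as a term in place of the block, and in the 4 libraries of code 2 alone, the same 6 members fell. With the code as a term 7.31% of tested genes were called lower, 6.06% higher and 13.4% in either direction. In the code 2 libraries the shares were 9.07%, 9.0% and 18.1%.

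Ccr2 (chromosome 9, 124101950 to 124113557, GRCm38, GENCODE M21) was at 81.4, 84.4 and 77.6 FPKM in control replicates 1 to 3 and at 50.5, 58.9 and 61.2 FPKM in the CUMS replicates. The groups did not overlap, and the means were 81.2 ± 3.39 and 56.9 ± 5.62 FPKM (SD, n = 3), a level 29.9% lower. The log2 change was −0.51 (SE 0.101, 95% interval −0.75 to −0.27, limma adjusted p = 0.0701). With the replicate block the adjusted p was 0.0196. The change was −0.68 in the pair of code 1 and −0.42 in the libraries of code 2.

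Its ligands are scarce transcripts in whole marrow. Ccl2 was at 0.715, 0.674 and 0.324 FPKM in control and at 2.09, 2.24 and 3.25 FPKM in CUMS, so it passed the filter of 1 FPKM in 3 libraries only through the group where it is high. Its log2 change was 1.16 (limma adjusted p = 0.0278, but 0.127 without the filter, 0.0854 without control replicate 2 and 0.12 without control replicate 3). With a CUMS library left out, or in the code 2 libraries alone, it did not pass the filter and has no value. Ccl7, Ccl8 and Ccl12 were below 1 FPKM on average in both groups and were not tested. The related receptor Ccr1, which is also carried by neutrophils and macrophages, stood at 38.9 ± 3.92 FPKM in control and 43.9 ± 0.573 FPKM in CUMS (0.17, adjusted p = 0.446). Of 8 ligands and related receptors 4 were tested, Ccl2 among them, with a median log2 change of 0.17. The 3 others with a test were called in neither fit.

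Ms4a4c and Ms4a6c encode 4-span membrane proteins of a family clustered on chromosome 19. Ms4a4c (11404770 to 11427246) was at 28.7, 23.7 and 22.1 FPKM in control and at 15.3, 16.7 and 15.4 FPKM in CUMS. It had the largest difference of the 10 on the log2 scale, −0.62 (SE 0.115, adjusted p = 0.0591, with the block 0.0171), with means of 24.8 ± 3.40 and 15.8 ± 0.772 FPKM. It passed without control replicate 1 (adjusted p = 0.0434), and with a minimum of 5 FPKM (0.0485) or after scaling to the same total (0.0338). Ms4a6c (11469366 to 11482192) was at 75.1, 65.5 and 66.7 FPKM and at 57.2, 65.2 and 55.3 FPKM. Its groups were parted only by a small gap between control replicate 2 and CUMS replicate 2. Its log2 change was −0.22 (SE 0.103, adjusted p = 0.366, with the block 0.161). The exons of Ms4a6c overlap those of BE692007 on the opposite strand over 1088 bp. Searched on either strand, which includes that overlap, 45.8% of the 100-base windows of Ms4a6c occur in transcripts of BE692007 or Prdm11. The use of strand in counting is not stated, so part of the reads of Ms4a6c may belong to BE692007, which reached 4.98 FPKM at most.

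Other genes of the family did not all lie on the same side of 0. Of 14 family members 11 were tested, and none was called in the fit with group only. With the block 2 fell, Ms4a4c and Ms4a8a. Ms4a8a was at 7.22 ± 0.937 and 4.47 ± 0.372 FPKM (−0.58, adjusted p = 0.0725, with the block 0.0283). Ms4a6b, a neighbour of Ms4a6c that lymphocytes also express, was at 23.0 ± 2.52 and 17.5 ± 1.02 FPKM (−0.37, adjusted p = 0.157). Ms4a3, a gene of granulocyte and monocyte progenitors, was at 74.6 ± 8.88 and 94.5 ± 4.14 FPKM (0.34, adjusted p = 0.189), a value on the other side of 0 from those of Ms4a4c and Ms4a6c. The list's median was −0.22.

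Ctss, cathepsin S, is an endosomal protease that trims the invariant chain from MHC class II molecules. On chromosome 3 (95526786 to 95556403) it was at 174.6, 133 and 128 FPKM in control and at 105, 104 and 96.7 FPKM in CUMS. The high value of control replicate 1 widened the control spread, with means of 145 ± 25.5 and 102 ± 4.67 FPKM, but every CUMS library was lower than every control library. The log2 change was −0.49 (SE 0.131, adjusted p = 0.135). With the block the adjusted p was 0.0253. The change was −0.72 in the pair of code 1 and −0.38 in code 2.

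Ctss belongs to a list of 13 cathepsins, their inhibitors and Cd74, the invariant chain. None of the 13, all tested, was called with group only, and with the block 4 fell, Ctss, Ctsh, Ctsd and Cst3, and Cst7 rose, of which Ctsd, Cst3 and Cst7 were named after their values were seen. The list's median was −0.25. Ctsh, cathepsin H, was at 89.4 ± 11.5 and 68.9 ± 1.41 FPKM (−0.36, adjusted p = 0.177, with the block 0.0470), and Cst3, cystatin C, at 357 ± 80.7 and 266 ± 23.6 FPKM (−0.40, adjusted p = 0.30, with the block 0.0399). Cd74 was at 553 ± 11.6 and 463 ± 35.2 FPKM (−0.26, adjusted p = 0.286, with the block 0.0722), and Ctsc, which activates the granule proteases, at 19.9 ± 1.53 and 16.8 ± 0.674 FPKM (−0.23, adjusted p = 0.299). Macrophages and B cells also carry Ctss and Cd74. The 10 macrophage markers summed to 254 to 311 FPKM in control and 222 to 237 FPKM in CUMS, and C1qa, C1qb, C1qc and Axl fell with the block. The other 6 were not called, and 4 of them had log2 changes above 0, from 0.01 for Vcam1 to 0.08 for Cd5l. The 8 B cell markers summed to 541 to 619 and 452 to 502 FPKM, and 3 of them fell with the block, Cd79a and Vpreb3 included. The other 5 were not called, and of these Ebf1 (0.16), Cd22 (0.08) and Cr2 (0.28) had log2 changes above 0. No marker of either list was at 0 in all libraries. Their part in the values of Ctss was not tested.

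Ly86 encodes MD-1, the secreted partner of the receptor RP105 (Cd180), a relative of the Toll-like receptors on B cells and myeloid cells. The gene (chromosome 13, 37345208 to 37419036) was at 60.6, 41.5 and 44.6 FPKM in control and at 39.3, 35.6 and 33.4 FPKM in CUMS. Both libraries of code 1 were the highest of their group, and no CUMS library reached a control library. Means were 48.9 ± 10.3 and 36.1 ± 2.99 FPKM, with a log2 change of −0.41 (95% interval −0.76 to −0.06, adjusted p = 0.252, with the block 0.0411). Its partner Cd180 was at 14.9 ± 0.595 and 11.5 ± 0.408 FPKM (−0.34, adjusted p = 0.123, with the block 0.0358). MD-2 (Ly96), the matching partner of TLR4, was at 3.50 ± 0.635 and 2.43 ± 0.292 FPKM (−0.38, adjusted p = 0.257). Cd14, the lipopolysaccharide co-receptor that is also a monocyte marker, was at 9.79 ± 2.16 FPKM in control and 16.0 FPKM in CUMS, where its 3 libraries were at 18.5, 14.4 and 15.0 FPKM (0.66, adjusted p = 0.109, with the block 0.00704). Of the 6 genes of this receptor complex, all tested, 2 fell and 1 rose with the block, and none was called without it (median −0.23). The part of B cells in these values, whose markers are given above and lay on both sides of 0, was not tested.

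Mpeg1 encodes perforin-2, a pore-forming protein that kills bacteria inside phagocytes. On chromosome 19 (12460779 to 12465283) it was at 138, 135 and 127 FPKM in control and at 107, 113 and 106 FPKM in CUMS. Both groups were tight, and the means of 133 ± 5.88 and 109 ± 3.51 FPKM lay 18.4% apart. The log2 change was −0.29 (SE 0.0861, adjusted p = 0.171, with the block 0.0468). Gasdermin D (Gsdmd), another pore former, was at 36.1 ± 2.60 and 32.1 ± 1.44 FPKM (−0.16, adjusted p = 0.458). Mpeg1 was the only one of the 4 pore-forming genes, all tested, that was called with the block, and their median was −0.14.

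Cybb encodes gp91phox, the catalytic subunit of the phagocyte NADPH oxidase that makes superoxide. On the X chromosome (9435252 to 9487771) it was at 154, 173 and 155.5 FPKM in control and at 147, 158 and 159.7 FPKM in CUMS. The groups overlapped, and the log2 change was −0.05 with a 95% interval of −0.27 to 0.16 (SE 0.0938, adjusted p = 0.842, with the block 0.637). Its membrane partner p22phox (Cyba) was at 425 ± 31.2 and 322 ± 36.4 FPKM (−0.40, adjusted p = 0.169, with the block 0.0284), and the groups did not overlap. Of the cytosolic subunits, Ncf1 was at 291 ± 20.3 and 248 ± 17.2 FPKM (−0.23, adjusted p = 0.347), and the small GTPase Rac2 at 263 ± 22.0 and 228 ± 35.4 FPKM (−0.21, adjusted p = 0.501). The 7 oxidase genes had a median log2 change of −0.16, none was called with group only, and Cyba alone was called with the block. Neutrophils carry the same oxidase. The 10 neutrophil markers summed to 47112 to 65612 FPKM in control and 49533 to 51811 FPKM in CUMS, none was called in either fit, and none was at 0. Of these markers 9 had a log2 change below 0 and Mmp8 (0.10) lay above it, with a median of −0.13. Their part in the value of Cybb was not tested.

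Lgals3, galectin-3, binds galactosides on glycoproteins and is abundant in monocytes and macrophages. It was the most abundant of the members (chromosome 14, 47367751 to 47386160), at 225, 189 and 192 FPKM in control and at 175, 159.5 and 158 FPKM in CUMS. The groups did not overlap, and the means of 202 ± 19.6 and 164 ± 9.60 FPKM gave a log2 change of −0.30 (SE 0.105, adjusted p = 0.243, with the block 0.0444). Galectin-1 (Lgals1) was at 149, 128 and 133 FPKM in control and 114, 101 and 95.6 FPKM in CUMS (−0.40, adjusted p = 0.136, with the block 0.0214), and the galectin-3-binding protein Lgals3bp at 26.6 ± 2.70 and 20.1 ± 3.63 FPKM (−0.39, adjusted p = 0.245, with the block 0.0306), with overlapping groups. Lgals9 was at 103 ± 13.4 and 88.1 ± 10.8 FPKM (−0.23, adjusted p = 0.46). Of 6 tested genes of the 7 on the galectin list, 3 fell with the block and none rose (median −0.26).

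F13a1 and Fn1 belong to matrix and clot chemistry, and both had overlapping groups. F13a1, the catalytic chain of coagulation factor XIII that cross-links fibrin and fibronectin (chromosome 13, 36867178 to 37050244), was at 108, 99.3 and 96.5 FPKM in control and at 99.2, 100.5 and 102.5 FPKM in CUMS. The groups overlapped, with means of 101 ± 5.77 and 101 ± 1.65 FPKM. Its log2 change was −0.0039 (SE 0.0864, 95% interval −0.20 to 0.20, adjusted p = 0.99). Megakaryocytes and platelets hold F13a1 too. The 7 megakaryocyte markers summed to 80.4 to 104 FPKM in control and 87.0 to 101 FPKM in CUMS, with none called in either fit and none at 0, and their part was not tested.

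Fn1, fibronectin, is secreted by monocytes as well as by stromal cells. It was at 35.7, 102 and 84.6 FPKM in control and at 43.3, 80.2 and 76.8 FPKM in CUMS (chromosome 1, 71585520 to 71653200). The libraries of code 1 were the low one of each group, below all 4 libraries of code 2. The difference between the codes was −1.10 on the log2 scale (adjusted p = 0.000987), while that between CUMS and control was −0.07 (SE 0.395, 95% interval −0.99 to 0.85, adjusted p = 0.959, with the block 0.723). It was 0.27 in the pair of code 1 and −0.24 in code 2. Fn1 has 11685 bp of exons, the longest of the members. Over the tested genes with a known exon length (613 had none), the difference between the codes moved with that length: its median was 0.11 for genes of at most 1000 bp, 0.20 for those up to 2000 bp, 0.12 up to 4000 bp, −0.06 up to 8000 bp and −0.30 above that. Ly86 and Lgals3 differed between the codes in the other direction, by 0.34 and 0.19 (adjusted p = 0.0208 and 0.0443). The 7 markers of stroma and osteoblasts summed to 85.5 to 91.9 FPKM in control and 112 to 118 FPKM in CUMS. Of the 7, Col1a1, Col1a2 and Cxcl12 rose with the block, the rest were not called in it, and 1 had a log2 change below 0. None was at 0, and the part of these markers in the values of Fn1 was not tested. The fibronectin receptor subunit Itgb7 was at 50.5 ± 1.84 and 36.6 ± 3.13 FPKM (−0.46, adjusted p = 0.0740, with the block 0.0174) and was the only one of the 10 genes of fibronectin receptors and transglutaminases, Fn1 and F13a1 included, that was called with the block. The median of those 10 was −0.0050.

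**Figure D2:**
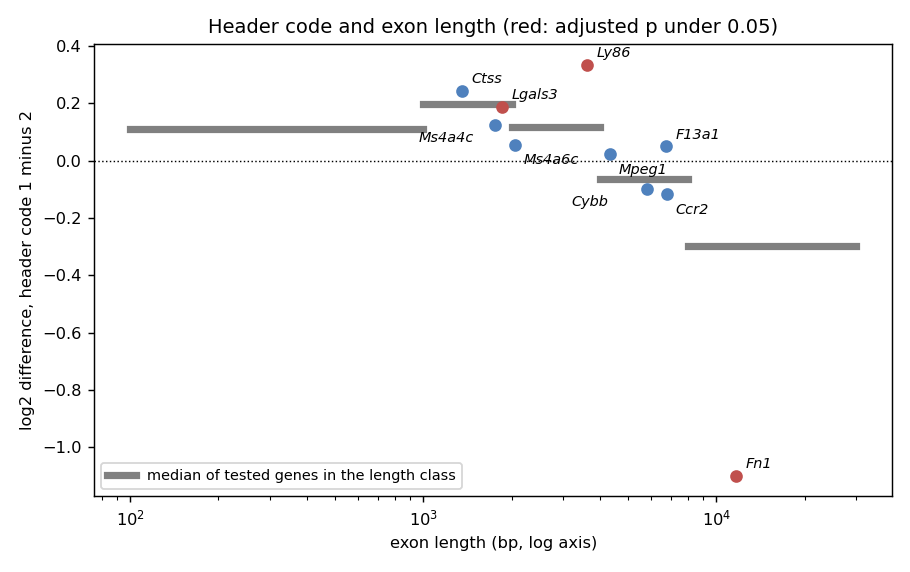
Log2 difference between libraries of header code 1 and code 2 (vertical axis) against exon length in bp (log axis) for the 10 members, with the median of the tested genes of known length in each class as a grey bar. Fn1, at −1.10, lies far below its class median of −0.30, and Ly86, at 0.34, above its own of 0.12.

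The changes of all members are set side by side in the plot of log2 changes with their intervals. The interval of each of the 10 was narrower with the block, and the estimates were the same in both fits.

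**Figure D3:**
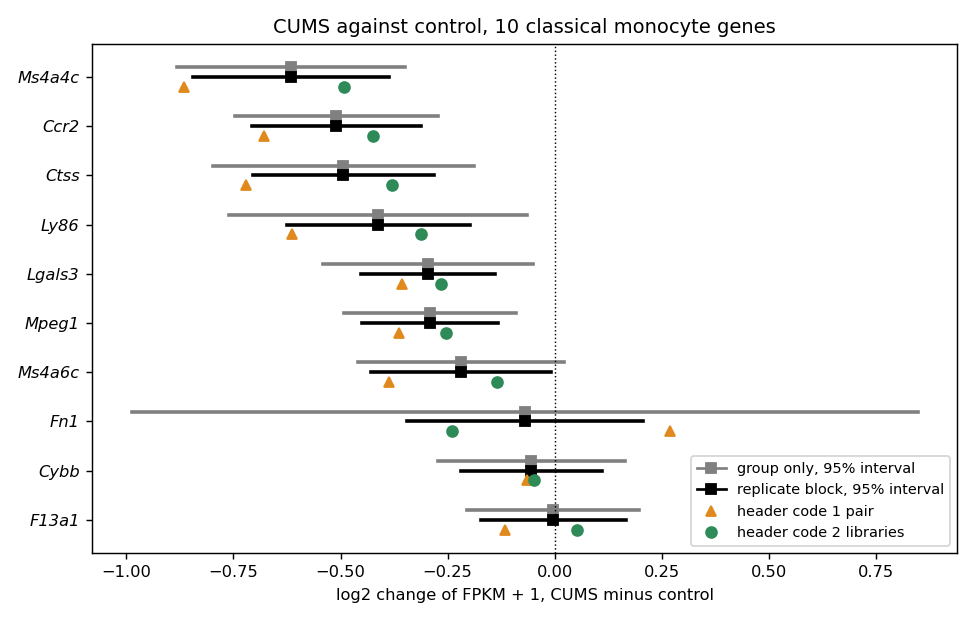
Log2 change of FPKM + 1 from control to CUMS for each member, with 95% intervals from the fit with group only (grey) and with the replicate block (black), and the change in the pair of header code 1 (triangles) and in the code 2 libraries (circles). Changes run from −0.62 for Ms4a4c to −0.0039 for F13a1, and for the 8 members below 0 in both codes the pair of code 1 shows the larger change. That pair is 1 library of each group and has no measure of spread.

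The members were also set against Ly6c2, the gene that names the cell. Ly6c2 was at 849, 641 and 632 FPKM in control and at 776, 677 and 727 FPKM in CUMS, with overlapping groups and a log2 change of 0.05 (SE 0.144, 95% interval −0.28 to 0.38, adjusted p = 0.914). Ly6c2 itself was higher in code 1, by 0.28 on the log2 scale (limma, group as a term, adjusted p = 0.0313). Its change from control to CUMS was −0.13 in the pair of code 1 and 0.14 in the code 2 libraries. The near-identical paralogs of the Ly6 cluster make the reads of Ly6c2 hard to assign. Relative to Ly6c2 in the same library, Ccr2 was 0.56 lower in CUMS on the log2 scale, Ms4a4c 0.67 lower, Ctss 0.54 lower, Ly86 0.46 lower and Lgals3 0.35 lower. For these 5 the exact two-sided permutation test over libraries gave p = 0.1 (0.2 after adjustment over the 10 members), the smallest that 3 against 3 allows. For Mpeg1 (0.34 lower) and Ms4a6c (0.27 lower) the exact p was 0.2, for Cybb and F13a1 0.6 and for Fn1 0.8. This test cannot pass a threshold of 0.05 with 3 libraries a group, and it does not take the header code into account.

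Some other genes of the classical monocyte fell. Of 24, all tested, 3 fell with group only: Fcgr1, the high-affinity IgG receptor, from 5.82 ± 0.706 to 1.94 ± 0.140 FPKM (−1.21, adjusted p = 0.00717), Csf1r, the receptor for macrophage colony-stimulating factor, from 46.7 ± 2.78 to 30.1 ± 2.67 FPKM (−0.62, adjusted p = 0.0338), and the lectin Clec4a1 from 16.7 ± 0.496 to 11.3 ± 0.804 FPKM (−0.53, adjusted p = 0.0495). Leaving out 1 library ended the call of Csf1r for each library but control replicate 1 (adjusted p up to 0.199), that of Fcgr1 for CUMS replicate 3 (0.055) and control replicate 3 (0.0662), and that of Clec4a1 for each of the 6 (0.0523 to 0.224). Without a filter the calls of Csf1r (adjusted p = 0.0971) and Clec4a1 (0.0936) were also lost, and that of Fcgr1 was kept (0.0498). Clec4a1 was also not called with a pseudocount of 0.1 (0.0501), without the variance trend (0.0607) or after scaling without haemoglobin (0.0636). Csf1r shares 873 bp of exon with Hmgxb3, which runs the other way. Clec4a3, a lectin of the same cluster, was at 17.6 ± 2.33 and 11.5 ± 0.563 FPKM (−0.57, adjusted p = 0.0725, with the block 0.0256). With the block 8 of the 24 fell and 2 rose, Cd14 and Vcan, the proteoglycan versican, which was named after its value was seen. With the header code as a term 11 of the 24 fell and 5 rose, and in the code 2 libraries alone 10 fell and 3 rose. The list's median was −0.26, beside −0.29 for the members. Chil3 stood at 1824 ± 116 FPKM in CUMS, 0.27 above control on the log2 scale. The limma adjusted p of Chil3 was 0.440 for group only and 0.0959 for the block, so neither fit called it. Chil3 rose with the header code as a term (0.0453) and in the code 2 libraries alone (0.00933). Lyz2, at 4039 ± 440 FPKM in CUMS, lay 0.45 below control. Its adjusted p was 0.307 for group only, 0.0320 for the block, 0.00969 for the code term and 0.00933 in code 2.

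Nonclassical monocyte genes are the nearest relatives of this set. Of 14, all tested, 2 fell with group only, and with the block 6 fell and 2 rose, Ear2 and the nuclear receptor Nr4a1, named after its value was seen (median −0.15). The fractalkine receptor gene Cx3cr1 fell, from 12.3 ± 1.35 FPKM in control to 5.17 ± 0.357 FPKM in CUMS (−1.10, adjusted p = 0.00817), and Apoc2, an apolipoprotein, from 12.5 ± 1.72 to 5.13 ± 0.374 FPKM (−1.14, adjusted p = 0.00877). Both calls were lost without control replicate 3 (adjusted p = 0.0662), CUMS replicate 3 (0.0525) or CUMS replicate 2 (0.0598 for Cx3cr1 and 0.0714 for Apoc2). Without a filter the call of Apoc2 was lost (0.0516) and that of Cx3cr1 was kept (0.0433). Ace, angiotensin-converting enzyme, was at 4.44 ± 0.821 and 2.21 ± 0.372 FPKM (−0.76, adjusted p = 0.0671, with the block 0.0185). Ear2, a ribonuclease shared with eosinophils, was at 132 ± 17.1 FPKM in control and 199 ± 14.0 FPKM in CUMS (0.59, adjusted p = 0.0712, with the block 0.0233). The 6 eosinophil markers summed to 647 to 888 FPKM in control and 1493 to 1537 FPKM in CUMS, all 6 rose with the block, and their part in the value of Ear2 was not tested. Whether classical and nonclassical genes differed in their change was not tested. The lists can be compared in the plot of log2 changes by list.

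**Figure D4:**
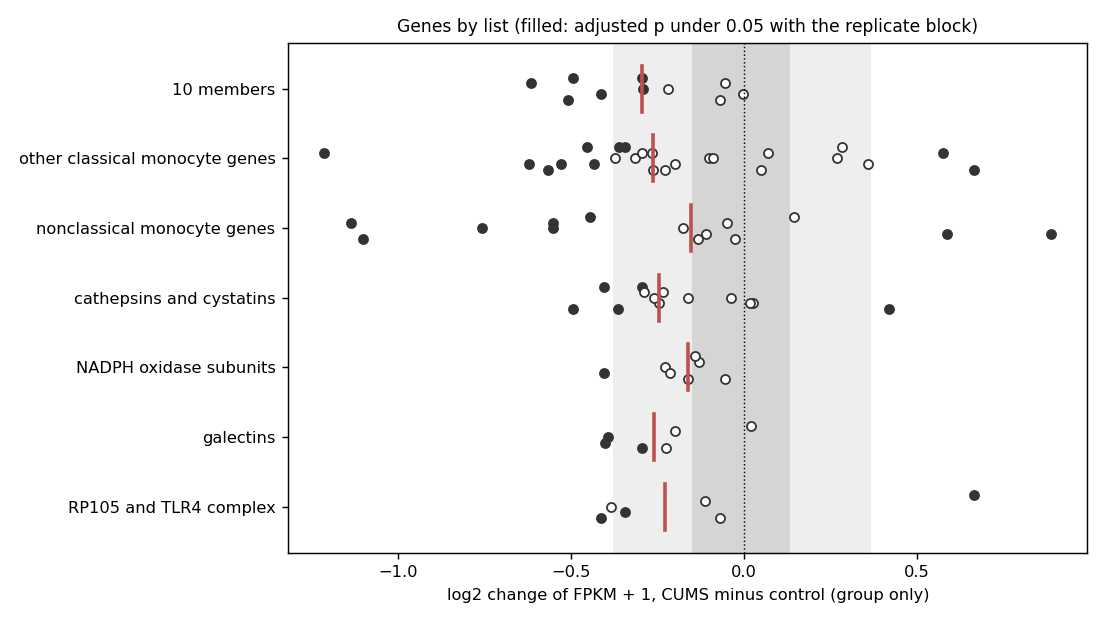
Log2 change from control to CUMS (horizontal axis, group only) of each tested gene in 7 lists, 1 circle a gene, filled where the adjusted p was under 0.05 with the replicate block, with the list median in red. The shaded bands hold the middle 50% and 90% of all tested genes. Medians of the lists drawn lie between −0.29 for the members and −0.15 for nonclassical monocyte genes.

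Genes whose profile over the 6 libraries was most like that of Ccr2 were not among the members. Likeness was the root-mean-square difference of log2 values, each gene centred on its own mean, over 6898 other genes whose log2 values averaged 3 or more. The 7 nearest were CYTB, Mrc1, Mndal, ATP6, Slfn4, Rsad2 and COX1, at differences of 0.0348 to 0.0583. CYTB, ATP6 and COX1 are genes of the mitochondrial genome, Mrc1 encodes the macrophage mannose receptor, and Mndal, Slfn4 and Rsad2 are interferon-inducible. CYTB was at 2267 FPKM in control and 1553 FPKM in CUMS on average, and Rsad2 at 86.3 and 56.4 FPKM. Of the members, Ms4a4c ranked 124 in likeness to Ccr2, Mpeg1 131, Ctss 387, Lgals3 479, Ms4a6c 499, Ly86 1221, Cybb 1293, F13a1 2116 and Fn1 6685, and Ly6c2 ranked 4253. These ranks describe 6 libraries that share the group difference and the header code.

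Haemoglobin transcripts took 28.8% to 29.2% of the summed FPKM in control and 31.7% to 35.2% in CUMS, which lowers the share left to all other genes. With libraries scaled to the same total without haemoglobin genes, the log2 change of Ccr2 was −0.47, that of Ms4a4c −0.58 and that of Ctss −0.45, and Ms4a4c passed (adjusted p = 0.0383). With that scaling F13a1 turned to 0.04. The other 9 members stayed below 0. No counts were given, so depth is unknown, and precision rests on the spread between 3 libraries a group. The labels do not say that the libraries come from separate animals, and every p-value here reflects variation among these 6 libraries alone, which may be technical.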

How the data were processed

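The authors sequenced 6 bone marrow libraries (3 control, 3 CUMS) on an Illumina instrument as read pairs, 151 bp each, from TruSeq libraries, per the labels' protocols. HISAT2 2.1, featureCounts 1.6.4, cutadapt 1.16.5, bcl2fastq 2.19, DESeq2 2.11.40.6 and mm10 appear in the submitters' processing notes, without their roles. Whether counting used strand is not given in the sources used here. The deposited values were read as FPKM from the values themselves, since no label or header names the unit: they are not whole and sum to 561563 to 658595 per library. The libraries of header code 1 had the highest sums, 658595 in control and 653026 in CUMS, against 561563 to 602591 in code 2. They also had the fewest genes above 0, 21344 and 21334, against 22826 to 23224 in code 2. Whole reads were not recovered: 20.3% to 22.4% of low values lay within 0.1 of a multiple of the most frequent step, and that tolerance covers 20% of the range.

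The 12302 genes that reached 1 FPKM in 3 or more libraries were tested by limma with a variance trend on log2(FPKM + 1), with group as the only term (limma 3.58.1 in R 4.3.3). Tables and plots were made with pandas 2.3.3, matplotlib 3.10.9 and numpy 2.4.6 in Python 3.11.15. P-values were adjusted by Benjamini-Hochberg over all tested genes, with a threshold of 0.05. Changes are CUMS minus control on that log2 scale, which understates the change of low genes. "Fell" and "rose" are used of genes that passed this threshold in the fit named beside them. The fit was tested on simulated data.

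Titles number the replicates. Deviations from the group means correlated by 0.689, 0.452 and 0.363 between same-numbered libraries, so the replicate number was used as a block beside the fit with group only. Crossed, replicates 2 and 3 correlated by 0.459 and 0.362, so the pairing beyond the header code is not distinct. The members and the 23 gene lists (202 entries, all found) were chosen with earlier results of these data known. Named genes are the members, Ly6c2, Csf1r, Cx3cr1, up to 4 genes of smallest p in each list described, and the 8 nearest to Ccr2; any others are said to be chosen after their values were seen. A few genes that this rule names are not reported here. Alternatives changed the model, pseudocount, filter, scaling, variance model and libraries. The code 2 libraries alone were added after seeing the data.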

Additional observations from a re-analysis of the deposited data

How the results depend on the processing

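The number of members called, 0 with group only, was 6 with the replicate block, with the header code as a term, with array weights and in the libraries of code 2 alone, always the same 6. It was 3 after scaling to the same total (Ms4a4c, Ctss, Lgals3), 2 with quantile normalization (Ms4a4c, Ctss), and 1 (Ms4a4c) with a minimum of 5 FPKM or after scaling to the same total without haemoglobin. Of all 12302 tested genes, 1015 were called lower with array weights, 101 at the same total and 91 with quantile normalization. At the same total without haemoglobin 46 were lower, and with a minimum of 5 FPKM 57 of 8321. Leaving out 1 library gave 0 to 1 member called (Ms4a4c without control replicate 1, where 97 of 12188 tested genes were called lower). Over all genes 132 were called (76 higher, 56 lower). The number was 959 with the replicate block, 1645 with the header code as a term, 1970 with array weights, 2178 in the libraries of code 2, 199 with quantile normalization and 36 without a filter. It ran from 12 to 255 when 1 library was left out: 255, 33 and 12 for control replicates 1, 2 and 3, and 67, 17 and 14 for CUMS replicates 1, 2 and 3. After scaling to the same total 166 were called, 65 higher and 101 lower. The cause was not tested.

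Of the members, 8 kept a log2 change below 0 in each of the 18 alternatives. F13a1 reversed to 0.047 with array weights, 0.052 in code 2 alone, 0.031 with quantile normalization, 0.037 after scaling without haemoglobin, and ran from −0.037 to 0.041 when 1 library was left out (0.0070 without CUMS replicate 1). Fn1 ran from −0.52 to 0.22 (0.21 without CUMS replicate 1, 0.22 without control replicate 2, 0.090 without control replicate 3). Ly6c2 ran from −0.025 to 0.19, and was below 0 without control replicate 2 (−0.014) or 3 (−0.025). Relative to Ly6c2, leaving out 1 library gave −0.15 to 0.0054 for F13a1, −0.71 to 0.24 for Fn1 (0.21 without CUMS replicate 1, 0.11 without control replicate 3) and −0.27 to 0.014 for Cybb. FPKM values without counts give no counting error, and 3 libraries a group limit the precision.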
